A study of Mus musculus with 15 samples.

Results

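This account covers the kinase-dead M46 experiment after cerulein: 3 libraries of MC pancreas against 3 control libraries, 6 of the 15 libraries of the study, chosen by their labels. The study asks how the kinase HPK1, encoded by Map4k1, acts in the exocrine pancreas during injury and early neoplasia in mice. MC mice carry M46, an HPK1 whose ATP-binding lysine was changed to methionine, and Bac-cre, a tamoxifen-inducible Cre driven by an elastase promoter, so that acinar cells make the kinase-dead protein. Control mice (B) are called wild type in the series text and littermate or Bac-cre controls in its article, and it is not stated for each library whether Bac-cre was present. Every library came from C57BL/6 mice aged 2 months that had received cerulein, with RNA pooled from 3 mice. M46 comes from an added transgene, and Map4k1 itself was not deleted. Whether reads of the transgene were counted on Map4k1 is not stated.

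Acinar cells make the digestive enzymes of the pancreas and carry a large endoplasmic reticulum for it. Cerulein, a peptide that mimics cholecystokinin, overstimulates them: enzymes are activated inside the cell, immune cells enter, and acinar cells lower their enzyme genes and take on ductal traits until the tissue repairs itself. HPK1 is a kinase of the MAP4K family, best known in blood cells, where it restrains T cell receptor signalling and acts upstream of JNK.

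On neither of the 2 leading principal components alone did the control and MC libraries separate, and 2 libraries stood apart. On the leading principal component of the expressed genes (61.2% of the variance), controls 1, 2 and 3 stood at -26.29, 6.197 and -46.48 and MC 1, 2 and 3 at 4.95, 28.59 and 33.04. Control 2 thus lay beyond MC 1 on the MC side of this axis, and among controls it had the highest levels of macrophage, collagen and mitotic genes. MC 1 lay apart from the other 5 libraries on the next component (16.2%), at 27.38, and had the highest levels of B cell, lymph node and fat cell genes. On that component controls 1, 2 and 3 stood at -13.28, -15.09 and 5.066 and MC 2 and 3 at 4.728 and -8.802. Control 2 and MC 1, near each other on the first component, thus lay far apart on this one. Results that rest on these libraries are given with and without them; for lists whose median turned on 1 library, the lowest and highest median without a library is given. The counts cover 15175 genes, 15087 of them coding for proteins, and list no immunoglobulin constant chain, T cell receptor constant chain, Xist or Y-linked marker genes, so sex was not checked. The labelled tissue was met by its defining genes: acinar enzymes took 39.8% of the counts or more in every library.

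Map4k1 itself was higher in MC. Its level was 3.80, 4.14 and 2.34 CPM in controls and 8.31, 6.79 and 7.50 CPM in MC (CPM, counts scaled to library size by the TMM method, the unit of all levels here). All MC libraries lay above all controls (log2 fold change 1.13, SE 0.24), and the adjusted p was 0.11 by edgeR with the Benjamini-Hochberg method and 0.001 by DESeq2 with the same method. The difference held its direction when libraries were scaled by total counts (1.39), by the counts outside acinar enzymes (1.17) or with the acinar share as a covariate (0.98). Ptprc, the phosphatase CD45 on the surface of all white blood cells, was higher as well, at 13.4, 19.8 and 8.40 CPM in controls and 38.3, 41.0 and 52.4 CPM in MC. Per Ptprc, Map4k1 stood at 0.284, 0.209 and 0.278 in controls and 0.217, 0.166 and 0.143 in MC, so that the groups overlapped and the ratio was not higher in MC; the part of white blood cells in the Map4k1 difference was not tested. In bulk RNA, fewer cells of a type and less RNA per cell cannot be told apart, here and for every gene group that follows.

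Across all genes, edgeR's quasi-likelihood test called 0 of the 13902 genes tested (0%) at an adjusted p of at most 0.05 and a log2 fold change of at least 1 in size; the smallest adjusted p was 0.0782. Before adjustment 2038 genes had p at most 0.05, of which 1279 were higher and 759 lower in MC. DESeq2 called 475 of 14876 genes, 452 higher (3.04%) and 23 lower (0.155%) in MC. Of these calls, 459 had been tested by edgeR, and 448 of them had groups that do not overlap, meaning that every MC library lay beyond every control. Such separation was seen in 1509 genes higher (10.9% of those tested) and 1375 genes lower (9.89%) in MC, and these shares are the background for the lists below. The count of edgeR calls turned on the libraries that stood apart: without control 2 it was 718 (678 higher, 40 lower), and without MC 1 it was 171 (166 higher, 5 lower). The genes separating the groups were 3563 higher and 3277 lower without control 2, and 2908 and 2865 without MC 1, where fewer libraries separate more easily. DESeq2 gave 1295 calls without control 2 and 536 without MC 1, but 240, 309, 234 and 300 without control 1, control 3, MC 2 and MC 3. Of these, the calls as lower numbered 97 and 106, but 3, 11, 2 and 8, in the same order. With all libraries scaled by total counts, DESeq2 called 446 genes higher and 3 lower. Because 0 genes passed the main test, differences are given as higher or lower with their values.

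The 50 lists of genes used here, 33 of cellular programmes and 17 of cell types, had their highest medians in B cell, fat cell, cytotoxic and NK cell, interferon and T cell genes, and their lowest in acinar cell markers, acinar enzymes, ATF4 targets, acinar identity and ribosome assembly. Among the low lists, acinar enzymes separated the groups as lower in 2.63% of members, fewer than the 9.89% of all genes, and acinar cell markers, with a median of -0.63 that ranged from -0.95 without MC 1 to -0.33 without control 3 and was 0.062 with the covariate, in 0 of 14, while ATF4 targets and ribosome assembly did so more often. The median log2 fold change over all genes tested was -0.024 (-0.022 without MC 3 to 0.0045 without control 3), and 38 of the 50 lists had a median above it. Each list below is described by how many of its tested members lay above or below 0, by how many of them separated the groups, and by its median. A value that follows a gene name without a unit is its log2 fold change.

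**Figure D1:**
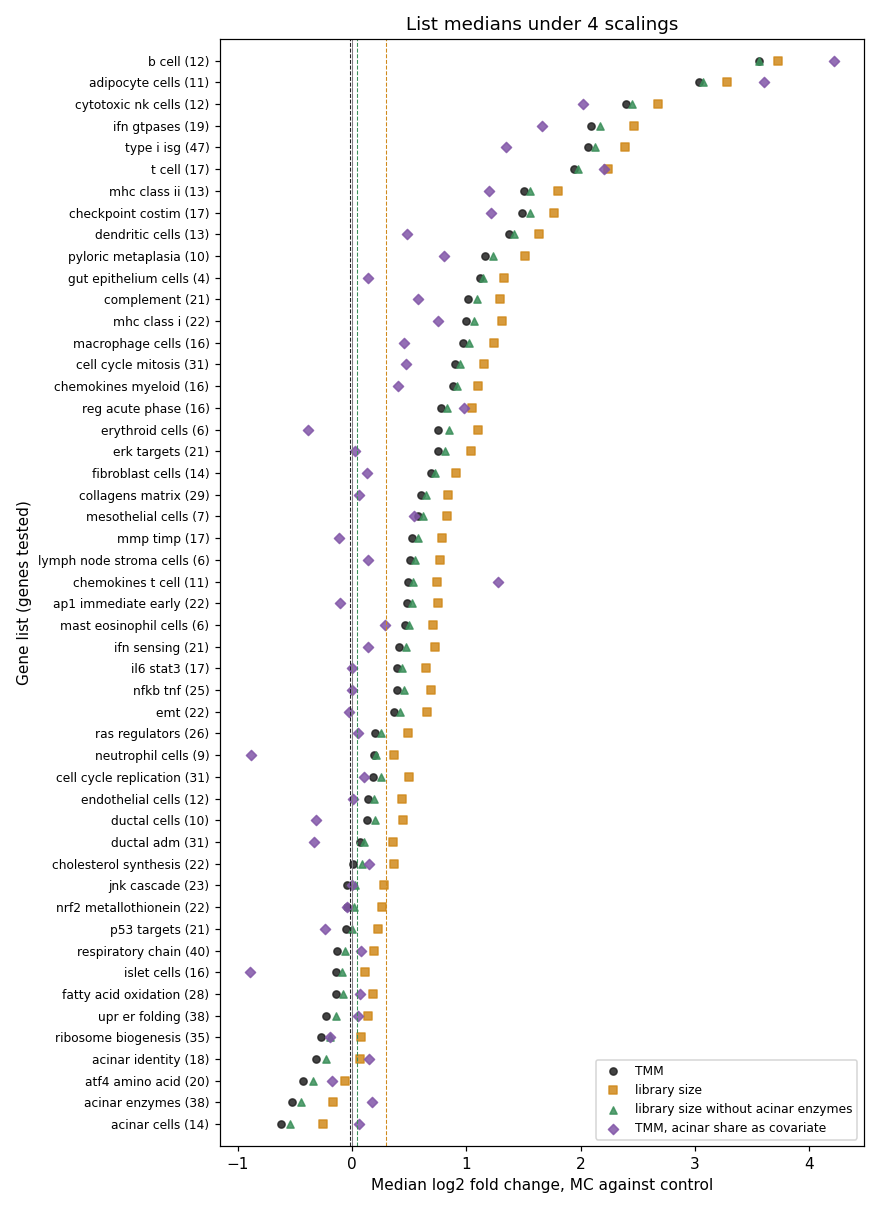
Median log2 fold change of MC against control for each of the 50 gene lists under 4 scalings, with the number of genes tested in brackets. Dashed lines give the median over all genes tested under each scaling.

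The acinar enzymes took a smaller mean share of the counts in MC, with groups that overlapped. A list of 38 digestive enzyme genes held 53.8, 44.8 and 59.3% of the counts in controls and 49.2, 39.8 and 41.1% in MC. Control 2 lay below MC 1, while MC 2 and MC 3 lay below all controls. The means were 52.7% (SD 7.32) and 43.4% (SD 5.09), a difference of -9.31 percentage points; an exact permutation test gave p = 0.2, where 0.1 is the smallest p that 3 against 3 libraries allow. Without control 2 the difference was -13.2 percentage points, without MC 1 -12.2, and without control 3, the library with the highest share, -5.97. Trypsinogen and amylase genes have near-identical copies, between which reads are assigned with uncertainty, and over the 26 genes left without these copies the difference was -8.31 percentage points.

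**Figure D2:**
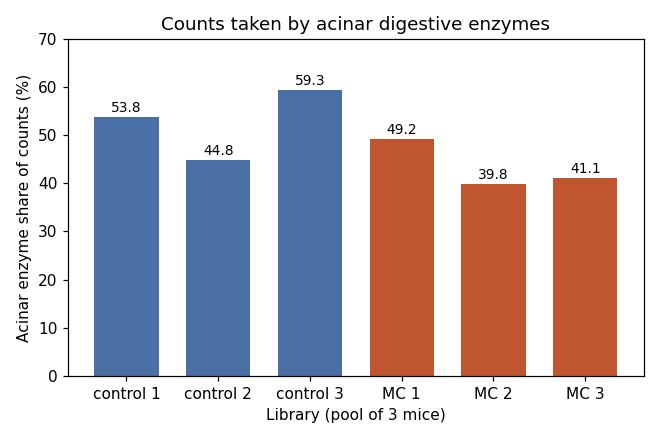
Share of all counts that fell on 38 acinar digestive enzyme genes in each library. Each library is a pool of 3 mice.

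The scaling of libraries moved all other genes at once. When libraries were scaled by their total counts alone, the median over all genes was 0.29, the genes separating the groups were 1671 higher and 106 lower, against 1509 and 1375 with TMM, and genes with an unadjusted p of at most 0.05 were 1349 higher and 40 lower. Values under that scaling are therefore read relative to 0.29. When acinar enzymes were left out of the totals, the median was 0.043, with 1344 genes higher and 1053 lower. TMM set the effective library size at 0.886, 1.13 and 0.706 of the total in controls and 0.944, 1.25 and 1.20 in MC, so the scaling was largest in the libraries with the highest and lowest enzyme shares. Under total counts 9 of the 50 list medians had the other sign and under totals without acinar enzymes 2 had, those of oxidative stress and metallothionein genes and of the JNK cascade, but in 0 of the 50 did the list move to the other side of the all-gene median. A fit with the log2 acinar share as a covariate, added with the data in view, moved single lists further: its all-gene median was 0.00035, and it called 2 genes.

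Acinar enzyme genes had a median log2 fold change of -0.53, with 31 of 38 lower in MC, but 1 gene separated the groups as lower and 3 as higher. The median ranged from -0.76 without control 2 to -0.21 without control 3. Ctrb1, a chymotrypsinogen and the most abundant transcript of the list, was at 135200, 101800 and 186300 CPM in controls and 132200, 90870 and 98930 CPM in MC (log2 fold change -0.39, SE 0.60). The pancreatic lipase Pnlip was at 55480, 24760 and 76820 CPM in controls and 33980, 12730 and 11960 CPM in MC (log2 fold change -1.42, SE 0.65). The groups overlapped for these genes, with MC 2 and MC 3 lowest in each. Per total counts the fold changes were smaller, -0.036 for Ctrb1 and -1.07 for Pnlip, and the elastase gene Cela1 had -0.86 by TMM, -0.54 by total counts, -0.56 without control 3 and -1.41 without MC 1. Ctrb1 had -0.13 without control 3. With the acinar share as a covariate the list's median turned positive, 0.17. Ctrb1 then stood at 0.17, Cela1 at -0.015 and Pnlip at -0.21, but the covariate is built from these same counts.

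A few trypsinogen genes were higher on average. Gm10334, of the trypsinogen cluster, was at 114, 189.8 and 102 CPM in controls and 652, 274 and 2128 CPM in MC (log2 fold change 2.91, SE 0.71). MC 3 had the highest level by far, as it had of Gm5771, at 858, 787 and 1060 CPM in controls and 1685, 1183 and 5144 CPM in MC, and of Prss3, at 2780, 2154 and 3139 CPM in controls and 4933, 3043 and 11650 CPM in MC, where control 3 exceeded MC 2 and the groups overlapped. Without MC 3 the fold changes of Gm10334, Gm5771 and Prss3 were 1.77, 0.67 and 0.57. These genes are among the near-identical copies, so their levels are uncertain.

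Among 18 genes listed for acinar identity, the differentiated state of the cell, 13 were lower and 5 higher (median -0.32), and 1 separated the groups. That gene was Nupr1, a stress-induced chromatin protein, at 7501, 4306 and 2989 CPM in controls and 2683, 2454 and 2355 CPM in MC (log2 fold change -0.98, SE 0.36). Nupr1 makes up 58.2% of the list's summed level. Control 1 was high, and without it the fold change was -0.55. Bhlha15, the factor MIST1 that organises the secretory apparatus, had -1.06 (-0.65 without control 3, -1.68 without MC 1 and -0.022 with the covariate), Ptf1a, the factor that switches on enzyme genes, had -0.37, and Cckar, the receptor through which cerulein acts, had -0.40, all with overlapping groups. Under total counts the list's median was 0.070, the other sign but below the all-gene 0.29. With the covariate the list's median turned as well, to 0.15, above the all-gene median, and Ptf1a (0.051) and Cckar (0.42) also had the other sign. The list's median ranged from -0.54 without control 2 to 0.048 without control 3, where its sign turned, as did that of Cckar (0.030).

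Genes of the unfolded protein response and of protein folding in the endoplasmic reticulum had a median of -0.23, with 31 of 38 lower, 5 separating the groups as lower (13.2%, against 9.89% of all genes) and 0 as higher. Eif2ak3 was lower in MC: this kinase, PERK, senses unfolded protein and slows translation. Its level was 246, 215 and 281 CPM in controls and 151, 123 and 134 CPM in MC (log2 fold change -0.86, SE 0.15; adjusted p 0.0843 by edgeR with Benjamini-Hochberg). Every MC library lay below every control, and the direction of Eif2ak3 held under total counts (-0.52) and with the covariate (-0.61). Hspa5, the main chaperone of the compartment, was at 1094, 756 and 856 CPM in controls and 517, 703 and 770.3 CPM in MC, with MC 1 lowest and overlapping groups. Xbp1, the factor that enlarges the secretory compartment, had -0.17 by TMM, 0.19 by total counts and 0.26 with the covariate, and the disulfide isomerase P4hb had -0.30, 0.058 and 0.26; by total counts both lay below the all-gene 0.29, as by TMM they lay below its median, and with the covariate both were above. Without control 3 Xbp1 had 0.038 and P4hb -0.022. The list's median had the other sign under total counts (0.14, below the all-gene 0.29) and with the covariate (0.055), and ranged from -0.38 without control 2 to -0.020 without control 3, where little of it was left.

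Downstream of PERK, targets of the factor ATF4, among them genes of amino acid supply and of the stress response, were lower in MC in 20 of 20 cases, with a median of -0.43. Of these, 6 separated the groups (30%). Atf4 itself, a member of the folding list, was at 252, 205 and 253 CPM in controls and 161, 167 and 159 CPM in MC (log2 fold change -0.54, SE 0.14). Shmt2, which makes glycine and one-carbon units in mitochondria, was at 75.4, 60.01 and 67.4 CPM in controls and 44.3, 37.5 and 35.6 CPM in MC (log2 fold change -0.79, SE 0.14), and Slc3a2, a chain of amino acid exchangers, at 289, 224 and 291 CPM in controls and 175, 164 and 170.4 CPM in MC (log2 fold change -0.66, SE 0.15). In these 3 genes all MC libraries were low and the groups did not overlap. Asns, asparagine synthetase, had -0.55 with overlapping groups, -0.29 without control 3 and -0.040 with the covariate. The list's median kept its sign under all scalings, at -0.068 by total counts, below the all-gene 0.29, and -0.18 with the covariate, and ranged from -0.51 without MC 2 to -0.27 without control 3.

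Known response elements were searched in the promoters of these genes, 250 bases before to 50 after each start, as a description of both lists. The composite amino acid response element TGATGNAA was in 7 of 18 matched ATF4 list promoters (38.9%) against 2.91% of 10680 tested genes and 4.51% of the 27025 genes of the promoter table. It was also in 6 of 30 acinar enzyme promoters (20%) and 4 of 36 promoters of type I interferon response genes (11.1%), so it was not confined to the ATF4 list. The 7 genes of the ATF4 list with the element were lower, as were all 20 of the list, and in 6 the groups overlapped. Searched likewise, the endoplasmic reticulum stress element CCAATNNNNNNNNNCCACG was in 9 of 31 matched folding genes (29%) against 0.169% of tested genes. Of these 9 genes, 4 were above 0 and 5 below in log2 fold change, and in 8 the groups overlapped, where the whole list had 7 of 38 above 0. Motifs were searched on each strand and counted separately, and matches of different motifs were allowed to overlap. One promoter of each kind is shown from RefSeq (build GRCm38.p6), 5′ to 3′ on the strand of the gene, with the match in capitals: Asns at chr6:7693210-7693252 on the minus strand, and Hspa5 at chr2:34772005-34772063 on the plus strand. A match describes the letters only.
Asns: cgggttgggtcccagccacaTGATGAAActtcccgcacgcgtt
Hspa5: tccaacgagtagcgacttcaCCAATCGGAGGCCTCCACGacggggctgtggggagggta

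Ribosome assembly followed the same direction: 34 of 35 genes were lower in MC (median -0.28), and 18 of them separated the groups (51.4%, against 9.89% of all genes). Gnl3, the nucleolar GTPase nucleostemin, was at 33.9, 27.5 and 34.0 CPM in controls and 19.1, 20.4 and 21.1 CPM in MC (log2 fold change -0.66, SE 0.13). All MC libraries were low and near each other. By total counts the list's median was 0.079, the other sign but below the all-gene 0.29, and with the covariate -0.20. Differences in mitochondrial programmes were smaller. Respiratory chain genes had a median of -0.13 (33 of 40 lower, 1 separating) and fatty acid oxidation genes -0.15 (22 of 28 lower, 3 separating), and each median was positive under total counts (0.19 and 0.18, below the all-gene 0.29) and with the covariate (0.078 and 0.070). They ranged from -0.20 without control 2 to -0.012 without control 3 and from -0.27 without control 2 to -0.044 without control 3. Etfdh, which passes electrons from fat oxidation to ubiquinone, was at 46.03, 40.5 and 50.1 CPM in controls and 33.0, 35.6 and 34.6 CPM in MC, without overlap. Ndufs7 (-0.32) of complex I and Atp5b (-0.20) of the ATP synthase overlapped. By total counts they had 0.032 and 0.15, the other sign but again below the all-gene median. With the covariate they had 0.014 and 0.055, above the all-gene median. When a library was left out, Ndufs7 ranged from -0.44 to -0.14 and Atp5b from -0.32 to -0.021.

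Ductal genes, which acinar cells turn on during metaplasia, did not move in a body. Of 31 tested, 17 were higher and 14 lower, with 1 gene separating the groups in each direction and a median of 0.066, or -0.34 with the covariate, and a range from -0.092 without MC 3 to 0.12 without control 1. The gene that was higher was Pigr, the epithelial receptor that carries IgA and IgM into secretions, at 80.0, 92.1 and 81.3 CPM in controls and 188, 295 and 229.6 CPM in MC (log2 fold change 1.49, SE 0.19; adjusted p 0.0782 by edgeR and 4.03e-10 by DESeq2, each with Benjamini-Hochberg). Every MC library was more than 2 times the highest control, and the covariate left 1.20. The duct keratin genes Krt8 (-0.32), Krt18 (-0.44) and Krt19 (-0.47) were lower on average with overlapping groups, and without control 1 Krt18 and Krt19 had -0.27 and -0.31. Spp1, a secreted protein of ducts and macrophages, had 0.66, highest in MC 2 and MC 3, and -0.30 with the covariate, 1.19 without control 2 and 0.31 without control 3.

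Stomach-type genes that mark pyloric metaplasia, a gastric gland state that acinar cells can adopt after injury, included some of the largest differences. Of 10 tested, 8 were higher and 4 separated the groups (40%), with a median of 1.16, 0.81 with the covariate and 1.49 over all 11 listed. Gkn3, a gastrokine of stomach glands, was at 1.72, 3.36 and 1.30 CPM in controls and 18.8, 49.0 and 53.9 CPM in MC (log2 fold change 4.22, SE 0.51). Gif, gastric intrinsic factor, was at 0.397, 2.71 and 2.34 CPM in controls and 13.2, 62.6 and 10.9 CPM in MC (log2 fold change 4.00, SE 0.89). Both were low in all controls; Gif was highest in MC 2, without which its fold change was 2.73. Tff2, a trefoil peptide that makes up 90.0% of the list's counts, was at 459.7, 302 and 786 CPM in controls and 532, 240 and 246 CPM in MC, lower on average with overlapping groups (-0.61, or 0.37 with the covariate, -0.16 without control 3 and -1.08 without MC 1), so the list's summed level was not higher in MC. Tff1, Gkn1, Gkn2, Psca and Vsig1 are not listed. Gut epithelium genes summed to 2.38, 5.18 and 7.19 CPM in controls and 4.12, 10.3 and 13.7 CPM in MC. They were higher on average with overlapping groups, and their part in these results was not tested.

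Genes of the Reg family, which acinar cells secrete under stress, and of acute phase proteins were split between abundant and rare members. Of 16 tested, 13 were higher, with 6 separating the groups as higher and 2 as lower (median 0.78, or 0.98 with the covariate). Reg1, the most abundant, was at 18070, 15170 and 25130 CPM in controls and 24660, 13250 and 12780 CPM in MC, and clusterin (Clu), a secreted chaperone, at 19440, 18080 and 18910 CPM and 17710, 14730 and 17570 CPM. Differences in these were small: -0.20 and -0.17 by TMM and, with the other sign, 0.12 and 0.14 by total counts, where both were still below the all-gene 0.29. With the covariate they had 0.39 and -0.081, and without control 3 Reg1 had 0.036. Clu ranged from -0.21 to -0.093 when a library was left out. Serpina3g, a protease inhibitor induced in activated immune cells, was at 0.595, 0.387 and 0.494 CPM in controls and 7.17, 3.95 and 4.39 CPM in MC (log2 fold change 3.38, SE 0.34). Hp, haptoglobin, was at 2.12, 5.45 and 9.34 CPM in controls and 126, 72.7 and 22.3 CPM in MC and, like the fat cell genes below, highest in MC 1. The median of this list ranged from 0.50 without control 1 to 1.47 without control 2.

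Interferon-stimulated genes had the highest share of members separating the groups as higher among the 50 lists. Type I interferon response genes were higher in MC in 47 of 47 tested, 46 separated the groups (97.9%, against 10.9% of all genes), and DESeq2 called 44 of them, or 93.6%, against 3.04%. The median log2 fold change was 2.06, with 2.39 by total counts, 2.12 without acinar enzymes in the totals and 1.35 with the covariate. Summed over the list, the level was 967, 921 and 860.2 CPM in controls and 1789, 3168 and 3886 CPM in MC. Controls were close to each other, and MC 1 lay above every control and below MC 2 and MC 3. Without control 2 the median was 2.21 and without MC 1 2.35. Ptprc, given above, and markers of T, NK, B, macrophage and dendritic cells, given below, were also higher in MC, and their part was not tested.

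Single members spanned antiviral effectors and sensors. Ifit1, which binds viral RNA lacking host cap marks, was at 1.88, 3.15 and 2.43 CPM in controls and 11.1, 51.6 and 62.9 CPM in MC (log2 fold change 4.07, SE 0.63). Irf7, the transcription factor that amplifies the interferon response, was at 14.8, 10.1 and 10.2 CPM in controls and 57.6, 161 and 256 CPM in MC (log2 fold change 3.76, SE 0.52). Isg15, a ubiquitin-like modifier, was at 4.13, 4.29 and 3.10 CPM in controls and 12.0, 45.4 and 58.6 CPM in MC (log2 fold change 3.33, SE 0.55). In each of them controls were low, MC 1 intermediate and MC 2 and MC 3 high, and this order also held for Ifi44 (3.88) and Ifit3b (3.78), an interferon-induced gene and a relative of Ifit1. The membrane protein Ifitm3, which blocks virus entry and is the most abundant of the list, was at 288, 269 and 295 CPM in controls and 526, 618 and 740.3 CPM in MC (log2 fold change 1.15, SE 0.17). Ifi27l2a, an interferon-induced membrane protein, had the fold change 2.41, and the secreted galectin-3 binding protein Lgals3bp 1.86. The adjusted p of these genes was between 0.0782 and 0.083 by edgeR with Benjamini-Hochberg, and by DESeq2 it was at most 3.22e-08, that of Ifitm3.

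The interferon-inducible GTPases, which attack the vacuoles of intracellular microbes, behaved alike: 19 of 19 tested were higher, 18 separated the groups (94.7%), and the median was 2.09, or 1.66 with the covariate. Their summed level was 90.3, 84.0 and 83.7 CPM in controls and 189, 414 and 429.7 CPM in MC. Irgm1, a regulator of this family, was at 20.8, 20.3 and 22.9 CPM in controls and 41.4, 91.0 and 113 CPM in MC (log2 fold change 1.94, SE 0.33), and its relative Irgm2 at 11.5, 13.7 and 9.16 CPM in controls and 21.6, 54.8 and 58.4 CPM in MC (log2 fold change 1.97, SE 0.37). Gbp5, a guanylate-binding protein, was at 2.64, 2.26 and 2.43 CPM in controls and 7.27, 9.63 and 7.46 CPM in MC (log2 fold change 1.73, SE 0.19). MC 1 was again the lowest MC library, but above all controls. Receptors and sensors of interferon moved less: 16 of 21 were higher, 9 separating (42.9%), with a median of 0.41, or 0.14 with the covariate. Tlr7, a sensor of RNA in endosomes, was at 4.03, 6.22 and 3.01 CPM in controls and 8.96, 9.82 and 15.5 CPM in MC. The interferon genes Ifna1, Ifna2, Ifna4, Ifnb1, Ifng, Ifnl2 and Ifnl3 are not listed.

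Promoters were read for the interferon lists because nearly all their members were higher. The interferon-stimulated response element GAAANNGAAA was in 18 of 36 matched type I response promoters (50%) and in 10 of 11 matched GTPase promoters (90.9%), against 3.88% of 10680 tested genes and 3.99% of the 27025 genes of the promoter table. It was also in 5 of 18 matched genes of class I antigen presentation (27.8%). The matches nearest the start of 5 named genes are shown with 20 bases to each side, from RefSeq (build GRCm38.p6), 5′ to 3′ on the strand of the gene, with that match, of the element or of its reverse complement TTTCNNTTTC, in capitals; Ifit1 and Bst2 have 2 matches each before the start, and the capitals mark 1 of them. Ifit1 lies at chr19:34640784-34640833 on the plus strand, Bst2 at chr8:71537567-71537616 on the minus strand, Gbp5 at chr3:142496749-142496798 on the plus strand, Irgm2 at chr11:58214893-58214942 on the plus strand, and H2-T23 at chr17:36032796-36032845 on the minus strand. These matches are descriptions of sequence and show no binding.
Ifit1: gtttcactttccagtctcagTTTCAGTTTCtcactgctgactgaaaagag
Bst2: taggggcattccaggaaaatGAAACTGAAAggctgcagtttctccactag
Gbp5: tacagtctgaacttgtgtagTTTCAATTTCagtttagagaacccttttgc
Irgm2: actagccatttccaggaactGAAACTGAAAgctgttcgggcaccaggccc
H2-T23: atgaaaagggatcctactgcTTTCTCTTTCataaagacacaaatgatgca

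Antigen presentation was higher with them. Class I genes, which display peptides from inside the cell, were higher in 21 of 22, 15 separating the groups (68.2%), with a median of 0.9996, or 0.75 with the covariate. B2m, the invariant light chain, was at 146, 162 and 115 CPM in controls and 307, 442 and 729.8 CPM in MC (log2 fold change 1.80, SE 0.32), and the nonclassical heavy chain H2-T23 at 38.3, 33.5 and 41.0 CPM in controls and 114, 102 and 163 CPM in MC (log2 fold change 1.75, SE 0.20). The classical heavy chains H2-D1 (0.97) and H2-K1 (0.99) did not overlap either, and in each MC 3 was highest. Class II genes, used by professional antigen-presenting cells, were higher in 12 of 13, 11 separating (84.6%), with a median of 1.504, or 1.20 with the covariate. H2-Aa, a class II chain, was at 39.8, 37.7 and 24.3 CPM in controls and 82.9, 88.0 and 117 CPM in MC (log2 fold change 1.501, SE 0.22), and Cd74, the invariant chain that guards its groove, had 1.46. Ctss, the protease that trims Cd74, overlapped, at 66.8, 108 and 36.6 CPM in controls and 81.8, 121 and 211 CPM in MC, with control 2 above MC 1. Markers of T, NK, B and dendritic cells, given next, were also higher in MC, and their part in these results was not tested.

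Lymphocyte markers were higher in MC from a very low base. T cell genes were higher in 16 of 17 tested, and these 16 separated the groups (94.1%), with a median of 1.94; the summed level was 22.2, 21.3 and 21.2 CPM in controls and 38.1, 29.1 and 30.4 CPM in MC. Cd3g, a chain of the T cell receptor complex, was at 0.231, 0.119 and 0.135 CPM in controls and 1.28, 0.681 and 1.01 CPM in MC; its controls held 7, 4 and 3 counts, where 3 counts are 0.0991, 0.0893 and 0.135 CPM. Lck, the kinase that starts receptor signalling, was at 1.19, 1.10 and 0.449 CPM in controls and 3.41, 2.33 and 2.86 CPM in MC (log2 fold change 1.62, SE 0.37). The list's most abundant gene was Tcf7, a Wnt factor that epithelial cells also express, and it was lower in MC without overlap, at 16.5, 14.6 and 16.4 CPM in controls and 13.0, 12.2 and 10.9 CPM in MC. Trac, Trbc1 and Trbc2 are not listed. Genes of cytotoxic and NK cells were higher in 12 of 12 tested, 11 separating (91.7%; median 2.39), and summed to 3.07, 4.26 and 3.14 CPM in controls and 13.4, 13.5 and 18.7 CPM in MC. Klrk1, the activating receptor NKG2D, was at 0.595, 0.476 and 0.494 CPM in controls and 1.18, 1.67 and 1.48 CPM in MC. The most abundant of them, Ccl5, a chemokine of cytotoxic cells, was at 0.760, 1.34 and 0.898 CPM in controls and 4.66, 4.42 and 6.00 CPM in MC (log2 fold change 2.32, SE 0.28). Over all members listed, with no filter on low counts, 16 of 17 T cell genes and 13 of 13 cytotoxic and NK genes were higher, but 4 of those 13 had 3 counts or fewer in every control. With the covariate the medians stayed high, 2.20 for T cells and 2.02 for cytotoxic and NK cells.

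B cell genes had the largest list median, 3.56, and rested in part on MC 1. Of 12 tested, 12 were higher and 10 separated the groups (83.3%). A filter on low counts keeps rare genes more readily where a group is high, so the count over all 15 members listed is also given: 15 were higher and 11 separated the groups, with a median of 3.49. The summed level was 15.6, 20.9 and 13.1 CPM in controls and 178, 50.3 and 47.5 CPM in MC. Ms4a1, the surface protein CD20, was at 0.264, 0.208 and 0.0898 CPM in controls and 14.2, 3.48 and 0.494 CPM in MC (log2 fold change 4.92, SE 1.23), and Pax5, the factor that fixes B cell identity, at 0.165, 0.0893 and 0.225 CPM in controls and 10.3, 3.03 and 0.296 CPM in MC (log2 fold change 4.84, SE 1.25). Cd79a, a signalling chain of the B cell receptor, was at 0.628, 0.387 and 0.404 CPM in controls and 17.1, 3.55 and 0.691 CPM in MC. In these 3 genes MC 1 was highest and MC 3 little above controls, and the controls held 8, 7 and 2 counts of Ms4a1 and 5, 3 and 5 of Pax5. Jchain, which joins secreted antibodies and is the most abundant of the list, was at 1.95, 2.80 and 2.83 CPM in controls and 44.0, 7.96 and 27.4 CPM in MC. With the covariate the list's median was 4.22, and without MC 1 it was 2.31, still above that of all genes, and Ms4a1, Pax5 and Cd79a had 3.35, 3.42 and 2.17. Ighm, Igkc, Ighd, Fcmr and Tnfrsf17 are not listed.

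The lymph node stroma list, which marks nodes attached to the organ, summed to 19.6, 33.2 and 22.7 CPM in controls and 164, 73.0 and 37.1 CPM in MC, and MC 1 was highest here too. Of 6 tested members 4 were higher and 1 separated the groups in each direction (median 0.51, or 0.14 with the covariate, 1.24 over all 9 members listed with no filter on low counts, and from 0.50 without MC 2 to 1.37 without control 2). Cxcl13, the follicle chemokine that draws B cells, makes up 43.1% of the counts and was at 0.793, 6.82 and 2.83 CPM in controls and 109, 28.2 and 2.81 CPM in MC; MC 3 lay among the controls. Lyve1, a receptor of lymphatic vessels and some macrophages, was at 8.49, 7.41 and 10.4 CPM in controls and 32.0, 22.6 and 18.8 CPM in MC. Marco, a scavenger receptor of node and spleen macrophages, was at 0.727, 3.01 and 1.08 CPM in controls and 44.2, 10.7 and 3.09 CPM in MC, again highest in MC 1. The defining gene Glycam1 is not listed. Whether nodal tissue was part of the B cell difference was not tested, and without MC 1 the T cell median was 1.74.

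Among myeloid genes, those of macrophages and dendritic cells were higher, while neutrophil genes overlapped and mast cell and eosinophil genes were split. On macrophage genes control 2 lay close to MC. Macrophage markers were higher in 16 of 16 tested, 10 separating the groups (62.5%; median 0.97, or 0.45 with the covariate), and summed to 753, 1464 and 588 CPM in controls and 1267, 1290 and 1807 CPM in MC. Control 2 exceeded MC 1 and MC 2 on this sum, and without it the list's median was 1.38. Lyz2, the lysozyme that makes up 44.3% of the list, was at 384, 822 and 289 CPM in controls and 540.2, 444 and 699 CPM in MC and highest in control 2 (0.17, or -0.32 with the covariate, -0.091 without control 3 and -0.020 without MC 3). C1qb, of the complement starter C1q made by resident macrophages, was at 56.4, 103 and 51.1 CPM in controls and 122, 144 and 157 CPM in MC (log2 fold change 1.004, SE 0.27), and the mannose receptor Mrc1 at 22.6, 32.4 and 23.9 CPM in controls and 42.2, 52.8 and 55.1 CPM in MC (log2 fold change 0.93, SE 0.17), without overlap. Dendritic cell genes had a median of 1.37, or 0.48 with the covariate (13 of 13 higher, 8 separating), and from 0.99 without control 3 to 1.79 without control 2. However, 68.2% of their summed counts came from Bst2, tetherin, which interferon also induces. Bst2 was at 42.8, 32.5 and 30.9 CPM in controls and 91.2, 138 and 205 CPM in MC (log2 fold change 2.03, SE 0.30). Neutrophil genes overlapped, with 7 of 9 higher, 0 separating, a median of 0.19, or -0.89 with the covariate, that ranged from -0.25 without control 3 to 0.99 without control 2, and sums of 30.4, 71.6 and 9.79 CPM in controls and 36.4, 54.7 and 37.6 CPM in MC. Their most abundant gene, Csf3r, the receptor for G-CSF, was at 11.5, 22.9 and 4.04 CPM in controls and 13.4, 17.2 and 16.1 CPM in MC (0.27, or -0.49 with the covariate and -0.13 without control 3); Ly6g, Mpo, Elane, Camp and Ngp are not listed. Genes of mast cells and eosinophils were split, with 3 of 6 tested higher, 1 separating as higher and a median of 0.46, or 0.29 with the covariate, -0.11 over the 4 members with at least 1 CPM in 3 libraries and 1.14 over all 9 listed, and from 0.039 without control 3 to 0.85 without control 1. Ear2, a ribonuclease of eosinophils, was at 0.991, 0.685 and 0.314 CPM in controls and 1.59, 1.48 and 1.73 CPM in MC. Kit, the stem cell factor receptor of mast cells, was lower on average (-0.99) with overlap. It had -0.48 with the covariate and ranged from -1.48 to -0.74 when a library was left out.

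Signals between immune cells were higher in part. Myeloid chemokines were higher in 16 of 16 tested, 4 separating (25%; median 0.88, or 0.40 with the covariate, and from 0.56 without control 3 to 1.54 without control 2). Ccl8, which attracts monocytes, was at 2.68, 3.54 and 2.74 CPM in controls and 8.42, 11.9 and 24.04 CPM in MC (log2 fold change 2.30, SE 0.39), and Ccl6, a macrophage chemokine, had 1.04. T cell chemokines had a median of 0.49 (9 of 11 higher, 4 separating as higher and 1 as lower) that was unstable: it was 1.27 with the covariate, 1.39 over the 10 members with at least 1 CPM in 3 libraries, 1.04 without MC 1 and 1.65 without control 2. Cxcl9, induced by interferon gamma, was at 0.595, 0.268 and 0.764 CPM in controls and 3.62, 4.77 and 9.92 CPM in MC (log2 fold change 3.53, SE 0.52). Checkpoint and costimulatory genes were higher in 17 of 17 tested, 14 separating (82.4%; median 1.49, or 1.22 with the covariate). Over all 18 listed, with no filter on low counts, 18 were higher and 15 separated the groups (median 1.503), but 3 of them had 3 counts or fewer in every control. Btla, an inhibitory receptor of lymphocytes, was at 0.331, 0.655 and 0.359 CPM in controls and 3.68, 2.56 and 2.91 CPM in MC (log2 fold change 2.73, SE 0.35), Cd274, the checkpoint ligand PD-L1, at 2.64, 2.11 and 1.57 CPM in controls and 4.97, 6.96 and 5.92 CPM in MC (log2 fold change 1.49, SE 0.25), and Vsir, the checkpoint VISTA of myeloid cells, at 17.2, 27.4 and 12.3 CPM in controls and 31.7, 36.1 and 47.0 CPM in MC. In these 3 genes MC did not overlap controls, and control 2 was nearest to MC for Vsir. Complement genes were higher in 20 of 21 tested, 13 separating (61.9%; median 1.01, or 0.58 with the covariate), with C4b, of the classical pathway, at 86.0, 56.4 and 62.8 CPM in controls and 164, 241 and 197 CPM in MC (log2 fold change 1.55, SE 0.21) and the central component C3 at 234, 534 and 239.5 CPM in controls and 590, 881 and 614 CPM in MC. Markers of T, NK, B, macrophage and dendritic cells were higher in MC as well, and their part was not tested.

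Fat cell genes were the other group with very large differences, again led by MC 1. Of the 11 members listed, each of which was tested, 10 were higher and 8 separated the groups (72.7%), with a median of 3.04, 2.49 without MC 1 and 3.60 with the covariate. Their sums were 111, 132 and 137 CPM in controls and 429, 262 and 184 CPM in MC. Cidec, a lipid droplet protein, was at 0.165, 0.119 and 1.17 CPM in controls and 15.4, 9.91 and 3.11 CPM in MC (log2 fold change 4.42, SE 0.90), Plin1, the coat protein of large droplets, at 0.132, 0.447 and 0.988 CPM in controls and 11.3, 7.75 and 2.15 CPM in MC (log2 fold change 3.81, SE 0.78), and leptin (Lep), the hormone of stored fat, at 0.132, 0.119 and 0.0898 CPM in controls and 1.49, 0.681 and 0.518 CPM in MC. The order MC 1, MC 2, MC 3 from high to low recurred in them, and control counts were 5, 4 and 26 for Cidec, 4, 15 and 22 for Plin1 and 4, 4 and 2 for Lep, so these fold changes are imprecise. The most abundant member, Lpl, a lipase of vessel walls that other cells also make, was at 69.4, 86.0 and 70.7 CPM in controls and 101, 79.8 and 94.2 CPM in MC with overlap, and the fatty acid carrier Fabp4 at 30.9, 30.2 and 34.3 CPM in controls and 85.9, 49.6 and 39.5 CPM in MC. Ucp1 is not listed. The part of fat tissue in other results was not tested.

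**Figure D3:**
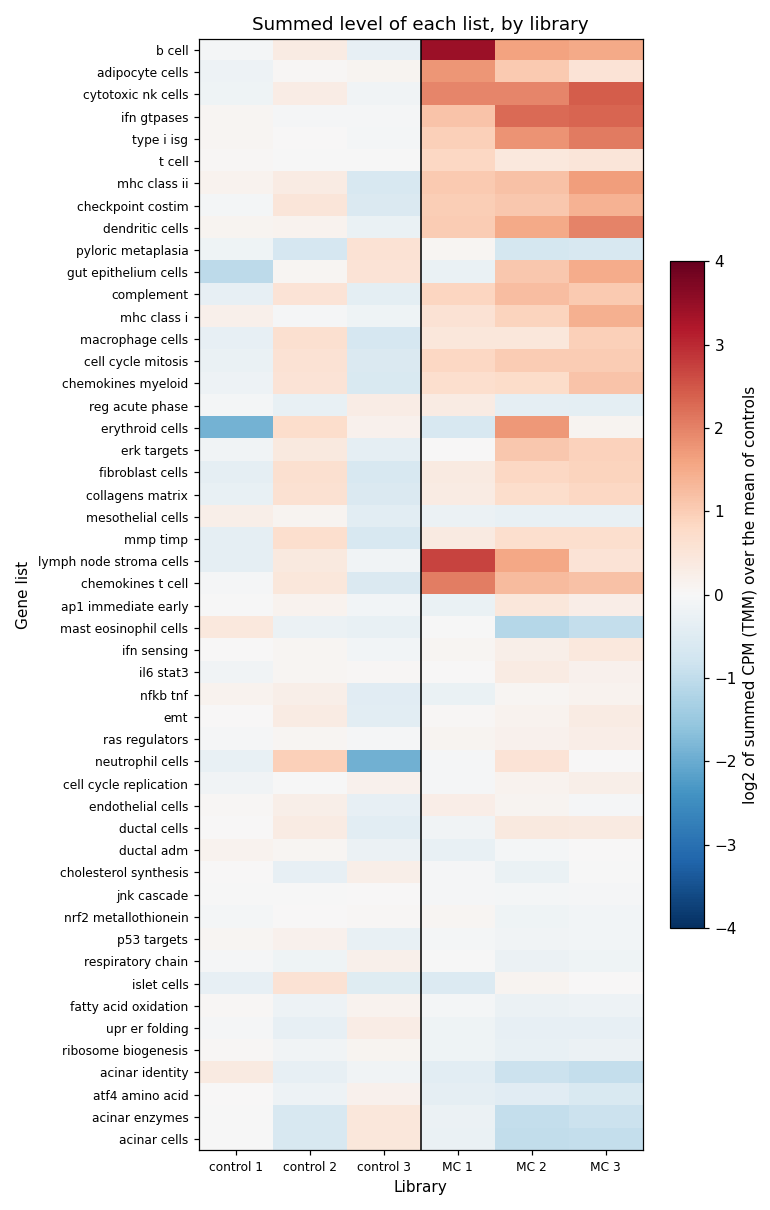
Summed level of each gene list in each library, as log2 of its CPM (TMM) over the mean of the 3 controls. Lists are in order of their median log2 fold change, highest first.

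Stromal lists had medians above that of all genes, but their members separated the groups at shares near or below those of all genes. Collagen and matrix genes were higher in 29 of 29 tested, but 3 separated the groups (10.3%, near the 10.9% of all genes), with a median of 0.60. Their sums were 2489, 4681 and 2070 CPM in controls and 3903, 5065 and 5411 CPM in MC, so control 2 lay above MC 1. The median ranged from 0.39 without control 3 to 1.04 without control 2, and with the covariate it was 0.062. Col3a1, a fibrillar collagen, was at 534, 1065 and 498 CPM in controls and 942, 1258 and 1260 CPM in MC, and Col1a1, the main collagen of scar, had 0.69, or -0.33 with the covariate, 1.40 without control 2, 0.36 without control 3 and 0.39 without MC 3. Dcn, a proteoglycan of fibroblasts, was at 78.2, 115 and 100.1 CPM in controls and 195.1, 183 and 110.2 CPM in MC, highest in MC 1. Fibroblast markers had a median of 0.69 (14 of 14 higher, 1 separating, 7.14%), 0.13 with the covariate, and from 0.43 without control 3 to 1.05 without control 2. Matrix proteases and their inhibitors had one of 0.52 (16 of 17 higher, 2 separating, 11.8%), -0.11 with the covariate, and from 0.34 without control 1 to 1.11 without control 2. Timp2, such an inhibitor, was at 58.0, 105 and 56.4 CPM in controls and 119, 127 and 116 CPM in MC. Genes of epithelial to mesenchymal transition had 0.36, or -0.031 with the covariate (18 of 22 higher, 1 separating as higher and 2 as lower), and ranged from 0.14 without control 3 to 0.66 without control 2. Vim, the filament of mesenchymal cells, had 0.53 (0.88 without control 2 and 0.32 without control 3), and Tgfbr2, a receptor of TGF-beta, 0.77. The epithelial cadherin Cdh1 had -0.28, or 0.045 by total counts, below the all-gene 0.29, and from -0.46 to -0.078 when a library was left out. With the covariate Vim had 0.17, Tgfbr2 0.18 and Cdh1 -0.68. The groups overlapped for each of these genes.

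Mitotic genes were higher in 31 of 31 tested, and 26 separated the groups (83.9%; median 0.90). Their sums were 129, 235 and 104 CPM in controls and 276, 313 and 317 CPM in MC. Control 2 again lay nearest to MC, with a median of 1.34 without it. Mki67, which marks cycling cells, was at 20.7, 46.3 and 17.2 CPM in controls and 54.1, 67.2 and 58.6 CPM in MC (log2 fold change 1.09, SE 0.35, and 1.66 without control 2), Top2a, which untangles DNA before division, at 17.2, 29.8 and 14.5 CPM in controls and 33.8, 38.7 and 41.6 CPM in MC, and the kinetochore protein Cenpf at 4.72, 6.73 and 3.28 CPM in controls and 10.98, 11.9 and 10.5 CPM in MC (log2 fold change 1.17, SE 0.25). With the covariate the median was 0.47. Replication genes moved far less, with 23 of 31 higher, 6 separating as higher (19.4%) and 1 as lower. Their median was 0.19, or 0.099 with the covariate and 0.11 without control 2. Pola1, a subunit of the polymerase that starts each strand, was at 6.87, 7.11 and 6.38 CPM in controls and 8.18, 10.3 and 10.8 CPM in MC. Pcna, the sliding clamp, overlapped (0.19, or 0.041 with the covariate and from 0.11 to 0.26 when a library was left out). Among p53 targets, 8 of 21 were higher and 2 separated the groups, with a median of -0.052, or -0.24 with the covariate, that ranged from -0.17 without control 3 to 0.025 without control 2; Cdkn2c, an inhibitor of CDK4 and CDK6, was at 6.01, 11.6 and 7.95 CPM in controls and 15.4, 14.4 and 13.1 CPM in MC. Macrophage and lymphocyte markers were also higher in MC, and their part in this result was not tested.

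Among signalling programmes near Ras and HPK1, ERK targets had the largest median, and with the acinar share as a covariate the medians lay near 0. The acinar share was itself lower on average in MC. That fit therefore cannot fully tell a group difference from one that follows the share. Immediate targets of ERK, the kinase downstream of Ras, were higher in 20 of 21 tested, 4 separating the groups (19%), with a median of 0.75. The median was 1.04 by total counts, 0.81 without acinar enzymes in the totals and 0.021 with the covariate. It ranged from 0.52 without control 3 to 1.04 without control 2. Dusp5, a phosphatase that shuts off nuclear ERK, was at 3.60, 4.08 and 1.84 CPM in controls and 3.62, 10.2 and 10.2 CPM in MC, Ccnd1, the cyclin that starts the cell cycle, at 23.1, 44.0 and 21.5 CPM in controls and 37.2, 62.5 and 55.0 CPM in MC, and Spred1, a brake on Ras, had 0.63. MC 2 and MC 3 were high and MC 1 lay among controls. AP-1 and immediate early genes had 0.48 (17 of 22 higher, 2 separating as higher and 1 as lower) and -0.10 with the covariate, and ranged from 0.30 without control 1 to 0.66 without control 2; Klf2, a factor of quiescent lymphocytes and vessels, was at 13.1, 16.0 and 13.3 CPM in controls and 22.6, 26.4 and 21.8 CPM in MC. Targets of NF-kB had 0.39 (17 of 25 higher, 5 separating as higher and 1 as lower) and -0.0052 with the covariate, and ranged from 0.30 without control 3 to 0.71 without control 2. Cd83, on activated dendritic and B cells, was at 1.42, 2.23 and 1.62 CPM in controls and 4.83, 5.15 and 3.92 CPM in MC, while Rela, the NF-kB subunit p65, had -0.49 with overlap, or -0.25 without control 1. Genes of IL-6 and STAT3 had 0.39, or -0.0052 with the covariate (14 of 17 higher, 3 separating), and ranged from 0.28 without control 1 to 0.55 without control 2. Jak2, a kinase of cytokine receptors, was at 25.7, 24.9 and 21.3 CPM in controls and 29.3, 31.6 and 34.7 CPM in MC.

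The JNK cascade, in which HPK1 acts, had a median of -0.044, with 9 of 23 higher, 14 lower, 3 separating as higher and 4 as lower. The median was -0.0040 with the covariate and ranged from -0.064 without control 1 to -0.0061 without control 3. Its most abundant gene, Map4k4, a related kinase, was at 113, 123 and 107 CPM in controls and 106, 95.3 and 99.9 CPM in MC, slightly lower without overlap (log2 fold change -0.19, SE 0.11) and, by total counts, 0.11, the other sign but below the all-gene 0.29. Regulators of Ras were higher in 19 of 26, 7 separating as higher (26.9%) and 1 as lower (median 0.20, or 0.053 with the covariate, and from 0.13 without MC 3 to 0.26 without control 2). Rasgrp1, an exchange factor that activates Ras in lymphocytes, was at 1.09, 1.19 and 0.404 CPM in controls and 5.47, 3.71 and 3.48 CPM in MC (log2 fold change 2.20, SE 0.40), along with the lymphocyte markers above, whose part was not tested. Rap1b, a small GTPase close to Ras and the most abundant of the list, was at 67.9, 90.8 and 64.4 CPM in controls and 85.8, 103 and 122 CPM in MC, with control 2 above MC 1.

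Among other tissue components, endothelial, islet and erythroid genes depended on single libraries and on the covariate, and mesothelial genes did so less. Mesothelial genes had a median of 0.58 (6 of 7 higher, 0 separating), 0.54 with the covariate, and from 0.45 without MC 1 to 0.85 without MC 3. Krt19, lower on average, made up 82.1% of their counts. Endothelial genes had a median of 0.14 (10 of 12 higher, 0 separating), 0.0046 with the covariate, and from 0.028 without control 3 to 0.24 without control 2. Islet genes had -0.14 (12 of 16 lower, 1 separating as lower), 0.11 by total counts, below the all-gene 0.29, -0.90 with the covariate, and from -0.40 without MC 2 to 0.36 without control 2. Ins2, an insulin gene, was at 498, 918 and 487 CPM in controls and 479.7, 624 and 614 CPM in MC, highest in control 2, and its log2 fold change was -0.15, 0.11 by total counts, the other sign but below the all-gene 0.29, -0.64 with the covariate and 0.21 without control 2. Glp1r, the incretin receptor, was at 13.6, 10.8 and 18.1 CPM in controls and 9.60, 9.94 and 9.73 CPM in MC, lower without overlap. Its log2 fold change was -0.54, or -0.31 without control 3, -0.16 by total counts and -0.21 with the covariate. Erythroid genes followed single libraries. Their median was 0.75 (6 of 6 higher, 0 separating), -0.39 with the covariate, and from -0.20 without MC 2 to 1.38 without control 2. Hbb-bs, a beta globin, was at 14.0, 83.0 and 58.1 CPM in controls and 31.8, 172 and 57.5 CPM in MC, highest in MC 2. Its log2 fold change was 0.75, or -0.21 without MC 2 and -0.40 with the covariate.

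By a rule of the 10 largest differences in each direction among genes that separate the groups with an unadjusted p of at most 0.05 and a mean of at least 2 CPM over the 6 libraries, 763 genes were eligible as higher and 607 as lower. The 10 highest were Ms4a1, Pax5, Cidec, Gkn3, Ifit1, Gif, Ifi44, Cd79a, Plin1 and Ifit3b, all met above: B cell, fat cell, stomach and interferon genes. Differences among the lower genes were smaller in size. Gal, the neuropeptide galanin, was at 52.0, 22.8 and 35.3 CPM in controls and 18.8, 5.26 and 5.63 CPM in MC (log2 fold change -1.90, SE 0.54). Camk2b, a calcium and calmodulin kinase, was at 35.9, 22.4 and 36.2 CPM in controls and 12.2, 9.77 and 15.4 CPM in MC (log2 fold change -1.33, SE 0.24), with control 2 nearest to MC. Ifrd1, a transcriptional coregulator induced by stress, was at 242, 123 and 197 CPM in controls and 110.5, 74.7 and 66.0 CPM in MC (log2 fold change -1.16, SE 0.29). Rab6b, a GTPase of Golgi traffic, was at 20.6, 18.3 and 19.8 CPM in controls and 2.47, 12.1 and 1.28 CPM in MC, with MC 2 nearer to controls, and without MC 2 its fold change was -3.40. Myrip, which links secretory granules to myosin, was at 13.7, 7.56 and 22.2 CPM in controls and 7.44, 4.56 and 4.20 CPM in MC, and the kinase Brsk2, of neurons and islets, at 26.0, 14.9 and 38.0 CPM in controls and 14.0, 12.3 and 8.20 CPM in MC. Control 3 was high for Myrip and Brsk2, and also for the cadherin Fat3 (-1.38), the monocarboxylate carrier relative Slc16a5 (-1.28) and the synaptic scaffold Dlgap3 (-1.23); without control 3 these had -0.97, -0.82, -0.78, -0.67 and -0.85. Under total counts these genes stayed lower, from -1.64 for Gal to -0.79 for Brsk2. With the acinar share as a covariate most were nearer 0: -1.04 for Gal, -0.41 for Myrip, -0.38 for Fat3, -0.30 for Slc16a5, -0.40 for Brsk2, -0.59 for Ifrd1, -0.84 for Dlgap3 and -0.97 for Camk2b, but -2.52 for Rab6b.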

How the data were processed

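RNA-Seq was made from pancreas, and the authors deposited raw counts of reads per gene, without scaling. By the submitters' processing notes, reads were demultiplexed with bcl2fastq 2.17.14, aligned to mm10 with STAR 2.6.1a and counted with HTSeq 0.6.1. Totals were 29766575 to 34144236 counts per library, so that after TMM 3 counts are 0.0705 to 0.135 CPM; the 95% Wilson interval of an enzyme share of 53.8% was 53.80 to 53.84% and holds counting error alone. Between replicates, chi-square per gene was 56.6 to 174, far above counting error. Symbols turned into dates were restored for 21 genes.

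Genes passing filterByExpr were scaled by TMM and tested with edgeR 4.0.16 (glmQLFTest) in R 4.3.3, with Benjamini-Hochberg adjustment over all genes tested; standard errors are the log2 fold change over the square root of F. Alternatives were DESeq2 1.42.0, other scalings and filters, a newer form of the fit, the replicate number as a block, and leaving out each library; the acinar share as a covariate, counts of list members with no filter and DESeq2 with other scalings or without a library are later additions, made with the values in view. The enzyme share was compared by an exact permutation test over libraries. Promoters were searched with Python 3.11.15, and the tests were tried on simulated counts.

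Members and lists were chosen with earlier results of these data known. Genes were taken for naming as Map4k1, the 10 largest differences in each direction among genes that separate the groups, and in each list the member with the smallest p and the 2 most abundant; the text names those that show a list's range. Ptprc, Prss3, Gm5771, Bhlha15, Ptf1a, Atf4, Hspa5, Hp, Irf7, Isg15, B2m, Cxcl9, Cd274 and Marco were chosen after their values were seen. The other 9 libraries were not used here.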

Additional observations from a re-analysis of the deposited data

How the results depend on the processing

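With 3 pools a group, no library could be set aside without cost, and the count of calls depended on which was kept. The main test called 0 genes; 1 was called with scaling by library size alone, 2 with the acinar share as a covariate, and 475 by DESeq2. Leaving out single libraries gave 0 to 718 calls by edgeR and 234 to 1295 by DESeq2. Genes separating the groups as higher numbered 1757 to 3563, and those as lower 1579 to 3277, when a library was left out, and 106 were lower with library size alone. Groups of fewer libraries separate more easily, so these counts are not like for like. The median over all genes was 0.295 with library size alone, 0.0427 without acinar enzymes in the totals, 0.0446 with the housekeeping list and 0.000348 with the covariate, and -0.0224 to 0.00448 when a library was left out.

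Replicate numbers do not pair the libraries: deviations of same-numbered control and MC libraries correlated at 0.077, 0.319 and -0.367, and not every library correlated best with its own number. With the replicate block, 0 genes were called, 2016 had an unadjusted p of at most 0.05, and the smallest adjusted p was 0.195 by edgeR with Benjamini-Hochberg.

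Of the 122 genes named, 18 changed sign under some setting. By library size alone the log2 fold change was 0.11 for Map4k4, 0.19 for Xbp1, 0.058 for P4hb, 0.032 for Ndufs7, 0.15 for Atp5b, 0.12 for Reg1, 0.14 for Clu, 0.11 for Ins2 and 0.045 for Cdh1; this scaling shifts all genes alike, and of these 9 genes 0 moved to the other side of its all-gene median of 0.295. With the covariate 14 genes were on the other side of 0 and of the all-gene median, with 0.17 for Ctrb1, 0.42 for Cckar, 0.051 for Ptf1a, 0.26 for Xbp1, 0.26 for P4hb, 0.014 for Ndufs7, 0.055 for Atp5b, -0.30 for Spp1, 0.37 for Tff2, 0.39 for Reg1, -0.32 for Lyz2, -0.49 for Csf3r, -0.40 for Hbb-bs and -0.33 for Col1a1. Leaving out single libraries gave ranges of -0.83 to 0.030 for Cckar, -0.34 to 0.038 for Xbp1, -0.57 to 0.036 for Reg1, -0.091 to 0.73 for Lyz2, -0.13 to 0.99 for Csf3r, -0.29 to 0.21 for Ins2 and -0.21 to 1.27 for Hbb-bs. DESeq2 called 57 of these genes, and edgeR 52 without control 2.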

Other observations

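Cholesterol synthesis genes had a median log2 fold change of 0.0099, with 12 of 22 higher and 0 separating the groups, 0.15 with the covariate, and a range from -0.11 without control 2 to 0.082 without control 3. Genes of the oxidative stress factor NRF2 and the metallothioneins had -0.046, with 9 of 22 higher, 1 separating as higher and 2 as lower, and a range from -0.14 without MC 1 to 0.012 without control 3. Mitochondrially encoded genes, counted by the share of reads they took, held 0.665, 0.863 and 0.654% in controls and 0.872, 0.895 and 0.783% in MC, with overlapping groups. Gut epithelium genes, which mark bowel, had a median of 1.11, or 0.13 with the covariate and 0.425 over all 6 members listed with no filter on low counts. The median ranged from 0.70 without control 3 to 2.04 without control 2. Of 4 tested, 3 were higher and 1 separated the groups (25%, against 10.9% of all genes). DESeq2 called 2 of these 4 as higher (50%, against 3.04% of all genes). The list summed to 2.38, 5.18 and 7.19 CPM in controls and 4.12, 10.3 and 13.7 CPM in MC. Fabp1, Fabp2, Apoa4, Sis, Alpi, Cdx1 and Cdx2 are not listed.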
